A study of Rattus norvegicus with 6 samples.

Results

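The genes described here are 49 genes of the Notch pathway and of the basic helix-loop-helix (bHLH) family of transcription factors in rat lateral ventricular choroid plexus. They were taken by a pattern of gene symbols from 10093 named genes. Those names come from a table that holds only genes its authors had called different between embryonic day 15 (E15) and the adult, so the 49 were selected on the age difference of these same pools. Their values and fold changes are for that reason a description, and no p-value is given for any of them. The selection rested on adjusted p-values that were not used here, so genes just inside or outside that limit cannot be singled out. *Twistnb* was taken in by its letters alone. It encodes a subunit of RNA polymerase I and is neither a bHLH nor a Notch gene.

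RNA was sequenced from the choroid plexuses of both lateral ventricles in Sprague-Dawley rats, at E15 and in adults of 6 weeks. Each age had 3 pools of 10 animals, with 1 library per pool, and all animals were untreated controls. The plexus was taken whole, so a pool held stroma, vessels and blood beside the epithelium, and because 10 animals were pooled the variation between single animals was not measured. The series title speaks of epithelial cells, but the tissue was the whole plexus. The libraries held 17875089, 18901272 and 18524987 counts at E15 against 18511712, 19204440 and 18421472 in the adult, in the order of replicates 1, 2 and 3, which is kept for all values below.

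Notch receptors are cell surface proteins that are activated by Delta and Jagged ligands on neighbouring cells. Cleavage by gamma-secretase then frees the intracellular part of the receptor, which binds RBPJ and Mastermind in the nucleus and turns on *Hes* and *Hey* genes, bHLH repressors that hold back proneural genes. Proneural bHLH proteins pair with E proteins to start neuronal differentiation, Id proteins take E proteins away from them, and the choroid plexus arises at the edge of the cortical neuroepithelium where this network acts.

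E15 replicate 1 stood apart from the other libraries of its age. Over the 16643 genes tested, Spearman's rho was 0.979 with replicate 2, 0.982 with replicate 3 and 0.996 for the latter pair, and the adult libraries lay between 0.986 and 0.988. Chi-square values per degree of freedom were 56.8 and 47.5 for pairs with E15 replicate 1 and 5.43 for the remaining E15 pair. Results that rest on this library are given with and without it.

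Counts were scaled by TMM factors, which were 1.32, 1.32 and 1.33 at E15 against 0.735, 0.773 and 0.762 in the adult, to give normalized counts on the scale of the mean effective library. Log2 fold changes are positive where a gene was higher at E15. The median over all genes tested was 0.14 with this scaling, 0.26 with upper quartile factors and 0.94 with scaling by total counts only, so a small difference in favour of the adult can turn round under the last of these. Where a gene had 0 counts in the adult, a lower bound is given against a floor of 3 counts over the 3 adult pools. Leaving out an adult pool lowers such a bound by about as much as the library sizes fall, since the floor stays the same. With 1 to 3 counts at an age, a ratio of summed normalized counts and an exact 95% interval are given. Such bounds and intervals take in the error of counting and no variation between pools.

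The tissue was checked against 12 genes of choroid plexus epithelium, of which 9 could be named. All 9 had counts at both ages and were higher in the adult, beside 29.3% of all genes tested, with a median log2 fold change of -3.16. Genes of this and every other marker list were named from the same table of genes called between the ages. Nothing is therefore read from how many of them differed. Their summed normalized counts were 447861, 536711 and 550942 at E15 against 5022014.6, 4194423.3 and 4090745.9 in the adult. *Ttr* made up 87.1% of the mean sum at E15 and 90.1% in the adult. Markers of other cells were present as well, and their levels are given where a gene moved with them.

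Of the 49 genes, all had more than 10 counts over the 6 libraries and entered the comparison of ages, 8 of them with counts at E15 alone. In the edgeR quasi-likelihood test over all genes, 40 of the 49 were called higher at E15 and 8 higher in the adult, where 34.7% and 29.3% of all genes tested were called. The pools of the ages did not overlap for 46 of the 49, against 70.1% of all genes tested. Nothing is read from these counts, since the genes had been selected on the same contrast. Without E15 replicate 1 the counts called were 40 and 7. The median log2 fold change of the 49 was 2.91, or 2.92 without that library, and it was 2.91 also with bounds and ratios in place of fitted values. *Hes7* was the gene not called here. In bulk tissue a smaller number of cells of a type and less RNA per cell cannot be told apart, and this holds for every difference below.

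**Figure D1:**
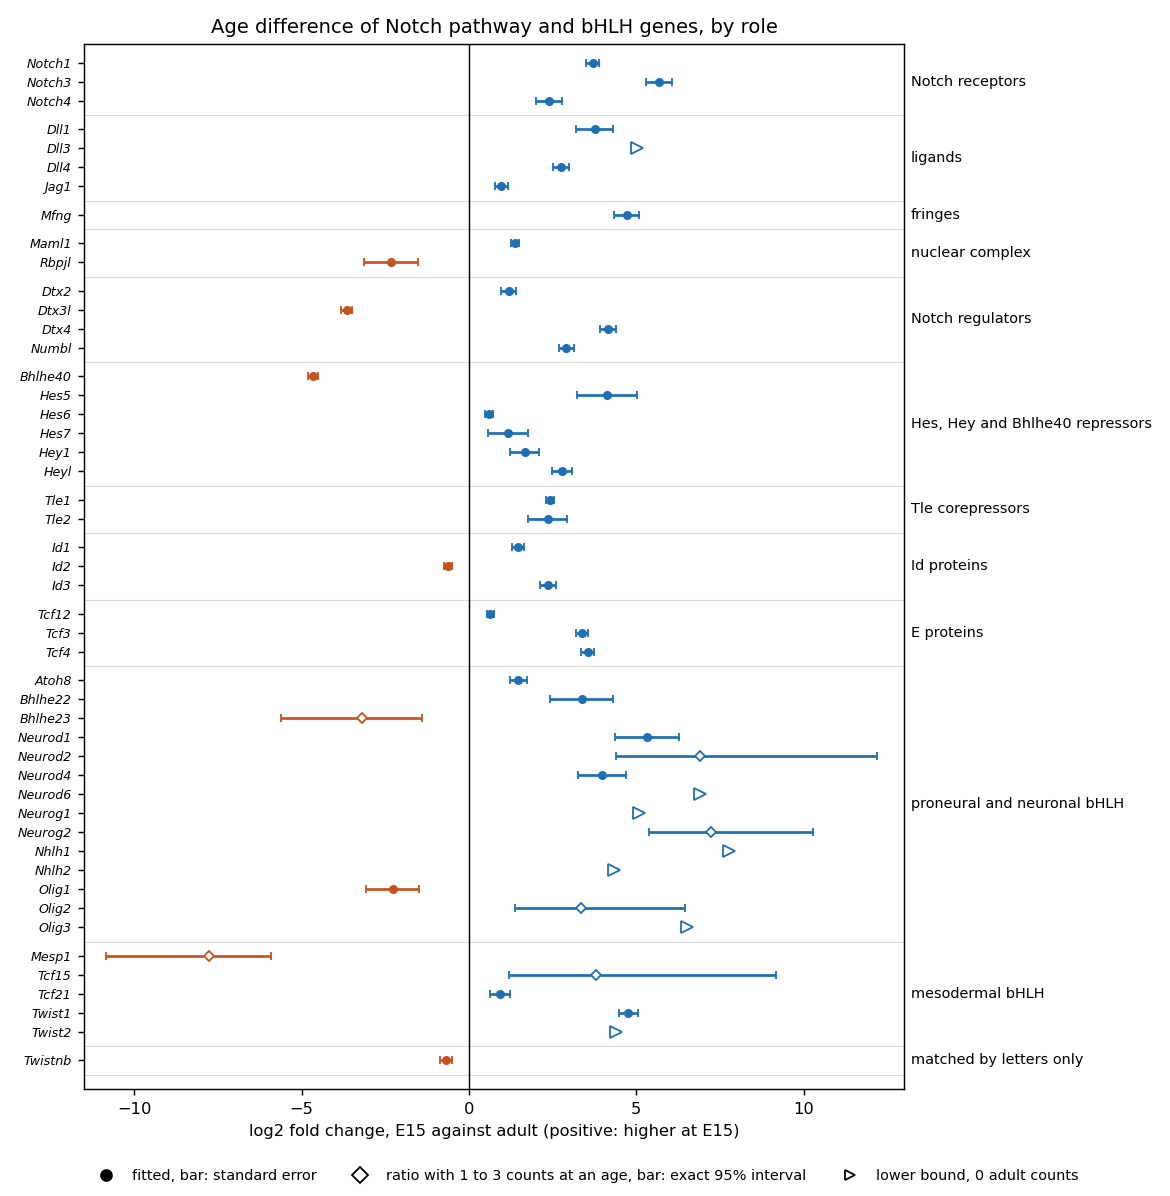
Log2 fold change between E15 and adult for Notch pathway and bHLH genes, grouped by role, with positive values higher at E15. Fitted values carry standard errors, ratios carry exact 95% intervals and genes with 0 adult counts are shown as lower bounds, and *Id2* and *Twistnb* change sides with scaling by total counts only.

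The 3 Notch receptors among the 49 genes were higher at E15, and a receptor gene without a name in the table is not covered. *Notch1*, the receptor of neural progenitors and many other cells, had 1485, 1859.7 and 2075 normalized counts at E15 against 123, 173 and 122 in the adult. *Notch3*, known from the mural cells of small vessels, had 1256, 2271 and 2086 at E15 against 12.7, 41.6 and 53.6 in the adult. *Notch4*, a receptor of endothelium, had 222, 461 and 336 against 31.1, 84.4 and 76.9. Every E15 pool lay above every adult pool for all 3 receptors, where the ages did not overlap for 70.1% of all genes tested. Replicate 1 was the lowest E15 pool for each receptor. The log2 fold changes were 3.69 for *Notch1* (standard error 0.19) and 5.69 for *Notch3* (standard error 0.39), or 12.9- and 51.6-fold, and *Notch4* differed by 5.27-fold. Without E15 replicate 1 they were 14.0-, 59.7- and 6.15-fold.

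The 4 ligands among the 49 genes were also higher at E15, with a wide range of sizes. *Jag1*, the Jagged ligand found in many epithelia and in vessels, was the ligand with the smallest difference, with 987, 891 and 765 normalized counts at E15 against 428, 588 and 341 in the adult. Its log2 fold change was 0.96 (standard error 0.20), a difference of 1.95-fold with no overlap between the ages. *Dll4*, the Delta ligand of arterial and sprouting endothelium, had 246, 239 and 207 against 29.7, 41.6 and 31.6, which is 6.69-fold. *Dll1*, the ligand that newborn neurons present to their neighbours, had raw counts of 313, 145 and 256 at E15 against 7, 21 and 3 in the adult. Among adult pools its counts were highest in replicate 2, and the fold of 13.5 became 26.1 without that pool. *Dll3*, a divergent Delta protein of the secretory pathway that does not activate Notch on other cells, had 58, 28 and 83 raw counts at E15 and 0 in each adult pool. It was at least 32.7-fold higher at E15. For both *Dll1* and *Dll3*, E15 replicate 2 was the lowest pool of its age.

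*Mfng*, which encodes a fringe glycosyltransferase that lengthens sugars on Notch and changes its response to ligands, had 337, 356 and 418 normalized counts at E15. The adult pools held 4.25, 18.2 and 19.2, and the difference was 26.2-fold (log2 fold change 4.71, standard error 0.37). Its adult counts were lowest in replicate 1, as were those of *Notch3* and *Notch4*.

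**Figure D2:**
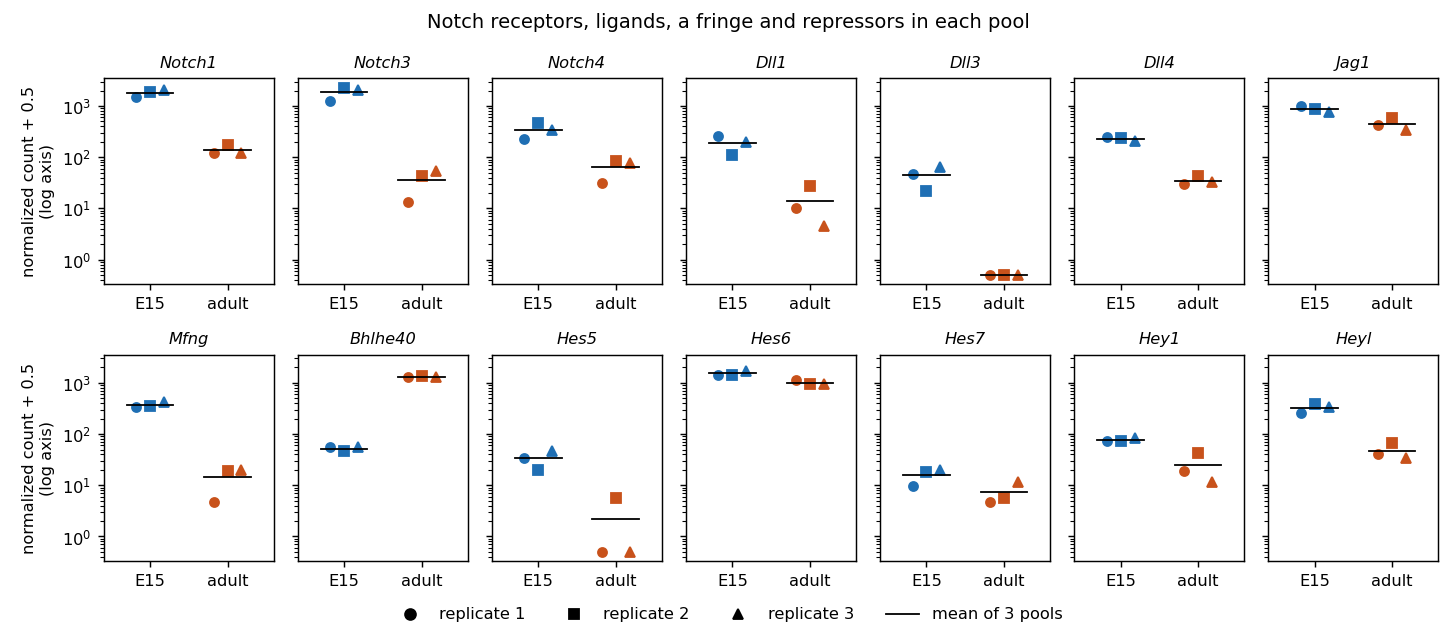
Normalized counts plus 0.5, on a log axis, of the 3 Notch receptors, 4 ligands, *Mfng* and 6 repressor genes in each pool, with E15 in blue and adult in orange. *Bhlhe40* was higher in every adult pool, *Hes7* overlapped between the ages, and the other 12 genes were higher in every E15 pool. The pools of the ages did not overlap for 70.1% of all genes tested.

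The receptors varied between pools of an age, and markers of several cell types varied in part with them. In the adult, the median log2 deviation of the 3 receptors from the other pools was -1.36 in replicate 1, 0.49 in replicate 2 and 0.41 in replicate 3. Of 12 endothelial markers 10 could be named, and their summed normalized counts were 803, 1308 and 993 in the adult against 8340.2, 11308 and 9365 at E15. The most abundant of them was *Cdh5* at E15 and *Tek* in the adult. Of 8 mural cell markers 6 could be named, with sums of 973, 1327 and 1233 in the adult against 5903, 7223 and 6258 at E15, led by *Pdgfrb*. All 10 and all 6 were higher at E15, beside 34.7% of all genes tested, but they too were named from the table of genes called between the ages. The medians were 3.01 and 3.15 on the log2 scale, and none of these markers was at 0 at either age. At E15 the receptors deviated by -0.79, 0.44 and 0.24, the endothelial markers by -0.29, 0.34 and -0.09 and the mural markers by -0.10, 0.27 and -0.10. By these medians, replicate 1 of each age was lowest for the receptors and lowest, or level with the lowest, for both marker lists. *Notch1* alone was level in adult replicates 1 and 3. In the adult the endothelial markers deviated by -0.55, 0.49 and -0.03 and the mural markers by -0.40, 0.40 and 0.08, so replicate 3 did not match the receptors. Erythroid markers followed the receptors at E15, at -0.50, 0.28 and 0.21, but not in adult replicate 3 (-0.44, 0.52 and -0.20). Macrophage markers followed them in the adult, at -0.79, 0.23 and 0.23, but at E15 were lowest in replicate 3 (-0.06, 0.16 and -0.14). The epithelial markers were also lowest in E15 replicate 1 (-0.28, 0.10 and 0.13), but not in adult replicate 1 (0.03, -0.07 and 0.07). Mesenchyme markers were lowest in replicate 1 of both ages, at -0.19 and -0.37. The part of any of these cell types in the receptors' age difference was not tested.

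Promoters of a receptor, a ligand and a target gene are printed to show where the core letters of the RBPJ site lie. These 3 genes were higher at E15, but the letters were also found in genes higher in the adult. Each is the stretch of 250 bases before the start of the gene in the RefSeq annotation of build GRCr8, read 5′ to 3′ on the strand of the gene, with TGGGAA or its reverse complement in capitals. *Notch4* lies on the minus strand (chr20:4189073-4189322), *Dll1* on the minus strand (chr1:64993275-64993524) and *Hes5* on the plus strand (chr5:170804327-170804576).
Notch4: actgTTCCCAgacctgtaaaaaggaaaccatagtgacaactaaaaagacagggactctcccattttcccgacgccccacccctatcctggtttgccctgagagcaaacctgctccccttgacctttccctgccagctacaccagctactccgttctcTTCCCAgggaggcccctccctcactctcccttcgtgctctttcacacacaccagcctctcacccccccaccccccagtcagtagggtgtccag
Dll1: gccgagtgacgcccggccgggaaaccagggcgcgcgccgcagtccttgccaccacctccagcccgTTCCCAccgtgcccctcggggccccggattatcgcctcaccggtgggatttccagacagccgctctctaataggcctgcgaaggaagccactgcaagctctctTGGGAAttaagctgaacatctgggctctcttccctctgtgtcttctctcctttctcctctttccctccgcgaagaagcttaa
Hes5: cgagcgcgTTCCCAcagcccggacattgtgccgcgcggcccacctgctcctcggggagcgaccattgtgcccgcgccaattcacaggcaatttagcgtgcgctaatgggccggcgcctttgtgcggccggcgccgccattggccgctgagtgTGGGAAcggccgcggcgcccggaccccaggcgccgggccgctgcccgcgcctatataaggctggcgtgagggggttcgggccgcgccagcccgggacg
Each of these promoters held the letters at 2 places. In *Hes5* they began 242 and 98 bases before the start, the former on the opposite strand.

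In RefSeq promoters of 300 bases, which reach from 250 bases before the start to 50 after it, 42 of the 49 genes were matched, 2 of them with more than 1 start. TGGGAA stood on either strand in 12 of the 42, or 28.6%, compared with 25.7% of all 33469 promoters. By role these were 2 of 3 receptors, 1 of 3 ligands, 2 of 5 repressors, 4 of 12 neuronal bHLH genes, 2 of 4 regulators of Notch and *Rbpjl*. By the sign of the fold change, 9 of the 12 lay on the E15 side, out of 36 matched genes there. Both counts take in *Hes7*, which was not called and overlapped between the ages. On the adult side were *Dtx3l*, *Rbpjl* and *Bhlhe23*, out of 6. The letters are short and a match is a description, not a site. Among the genes not matched were *Mfng*, *Bhlhe22*, *Dll4*, *Olig1*, *Hey1* and *Twistnb*.

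Of the nuclear partners, *Maml1*, the coactivator that Notch recruits, had 1307, 1483 and 1389.6 normalized counts at E15 against 499.8, 586 and 529 in the adult. Its pools varied little, and the log2 fold change was 1.37 (standard error 0.12). *Rbpjl*, a relative of RBPJ known from the exocrine pancreas, was scarce, with raw counts of 0, 7 and 6 at E15 against 11, 16 and 12 in the adult. *Rbpjl* was by the fit 5.04-fold higher in the adult, or 3.44-fold without E15 replicate 1, which held none of its counts. Its call was lost without E15 replicate 3, without adult replicate 2 and without adult replicate 3, with folds between 4.71 and 6.20, and with scaling by total counts only.

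Regulators of Notch moved in both directions. *Dtx3l*, a ubiquitin ligase related to Deltex, had 142, 126 and 109.8 normalized counts at E15 against 1463, 1432 and 1849 in the adult. This was a 12.6-fold difference, at a log2 fold change of -3.65 (standard error 0.16). *Dtx4*, a Deltex ubiquitin ligase, showed the opposite, with 416, 463 and 406 at E15 against 19.8, 32.5 and 19.2 in the adult, or 17.8-fold. *Dtx2* was 2.28-fold higher at E15. *Numbl*, a relative of Numb that restrains Notch in dividing neural cells, was 7.52-fold higher at E15 (log2 fold change 2.91, standard error 0.22).

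*Numb* itself is listed in the authors' table under a protein entry name, so the symbol pattern missed it, and it was found through its RefSeq accession after the 49 had been taken. It had 379, 504 and 493 normalized counts at E15 against 1121, 1041 and 997 in the adult. The adult level of *Numb* was thus 2.29-fold that of E15, at a log2 fold change of -1.20 (standard error 0.14), the opposite of *Numbl*.

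Of the 6 repressor genes, 4 were called higher at E15, beside 34.7% of all genes tested, *Bhlhe40* was higher in the adult and *Hes7* was not called. *Heyl*, a target of Notch known from vascular smooth muscle, had 259, 389 and 332 normalized counts at E15 against 41.1, 67.5 and 33.0 in the adult, which is 6.88-fold (log2 fold change 2.78, standard error 0.29). A further identifier, described by the full name of *Heyl* (hairy/enhancer-of-split related with YRPW motif-like), had 7, 9 and 9 raw counts at E15 and 0 in the adult. *Hey1* had 72.8, 73.2 and 84.7 at E15 against 18.4, 42.9 and 11.0 in the adult. Adult replicate 2 was again the highest adult pool for both genes, and without it the difference of *Hey1* went from 3.16- to 5.09-fold. *Hes5*, the target typical of neural progenitors, had 42, 25 and 60 raw counts at E15, with all 4 adult counts in replicate 2. Its fitted log2 fold change was 4.13 (standard error 0.89), and without that adult pool it was at least 16.0-fold higher at E15.

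*Hes6*, which opposes other Hes proteins and promotes neuronal differentiation, had the smallest difference among the repressors called. Its normalized counts were 1454, 1449 and 1707 at E15 against 1134, 949 and 966 in the adult. The log2 fold change of 0.60 (standard error 0.12) lay between 0.51 and 0.65 with each pool left out, and was 1.40 with scaling by total counts only. *Hes7*, the oscillating repressor of the somite clock, had 11, 23 and 25 raw counts at E15 against 3, 4 and 8 in the adult, with a fold of 2.25. After scaling E15 replicate 1 lay below adult replicate 3, so the ages overlapped, and *Hes7* was called only in the exact test and with scaling by total counts only.

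*Bhlhe40*, a bHLH repressor that takes part in the circadian clock and answers to hypoxia and growth signals, ran against the other repressors. It had 54.8, 45.4 and 54.9 normalized counts at E15 against 1297, 1349 and 1298 in the adult. The difference was 25.4-fold, with the adult higher (log2 fold change -4.67, standard error 0.14). With each pool left out in turn the log2 value stayed between -4.71 and -4.58, and it was -3.86 with scaling by total counts only. Among the 6 repressor genes it was the only one higher in the adult, under each scaling tried.

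Hes and Hey proteins bind CACGTG and CACGCG, and promoters that held these letters are printed for *Bhlhe40* and *Heyl*, and for *Atoh8* and *Neurod1*, bHLH genes higher at E15. They are again the 250 bases before the start in RefSeq on GRCr8, on the strand of the gene. Capitals mark CACGTG in *Bhlhe40* (plus strand, chr4:143174200-143174449) and *Atoh8* (minus strand, chr4:105850380-105850629). They mark CACGCG or its reverse complement in *Heyl* (plus strand, chr5:140793021-140793270) and *Neurod1* (minus strand, chr3:84770455-84770704).
Bhlhe40: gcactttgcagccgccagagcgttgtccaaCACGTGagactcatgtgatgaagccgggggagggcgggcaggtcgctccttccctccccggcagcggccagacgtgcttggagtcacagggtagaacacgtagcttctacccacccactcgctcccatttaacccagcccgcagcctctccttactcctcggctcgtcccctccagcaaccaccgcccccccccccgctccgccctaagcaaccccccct
Atoh8: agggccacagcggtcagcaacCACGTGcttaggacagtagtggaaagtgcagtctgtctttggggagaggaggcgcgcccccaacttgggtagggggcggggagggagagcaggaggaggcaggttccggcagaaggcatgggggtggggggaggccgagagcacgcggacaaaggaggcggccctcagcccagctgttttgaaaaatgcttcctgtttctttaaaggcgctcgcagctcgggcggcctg
Heyl: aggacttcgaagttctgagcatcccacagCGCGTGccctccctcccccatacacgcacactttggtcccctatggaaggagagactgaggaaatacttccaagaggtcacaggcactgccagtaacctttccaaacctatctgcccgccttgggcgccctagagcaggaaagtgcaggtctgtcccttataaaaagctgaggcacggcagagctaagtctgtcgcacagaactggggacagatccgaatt
Neurod1: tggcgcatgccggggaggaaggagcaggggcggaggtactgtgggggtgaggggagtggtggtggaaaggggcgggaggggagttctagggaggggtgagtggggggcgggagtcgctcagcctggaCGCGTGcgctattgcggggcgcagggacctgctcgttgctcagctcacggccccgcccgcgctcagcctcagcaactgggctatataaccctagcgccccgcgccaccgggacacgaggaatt
CACGTG stood 220 bases before the start of *Bhlhe40*, a gene higher in the adult, and 229 bases before that of *Atoh8*, a gene higher at E15.

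Over the 300 bases, CACGTG was found in 2 of the 42 promoters, or 4.76%, and in 6.42% of all promoters. The letters CACGCG were in 8 of the 42, or 19.0%, and in 8.50% of all promoters. The other 6 of these 8 beside *Heyl* and *Neurod1* were *Atoh8*, *Bhlhe23*, *Hes7*, *Jag1*, *Twist1* and *Twist2*. The E-box CAGCTG, which proneural proteins bind with E proteins, was in 8 of the 42 (19.0%, against 15.1% of all). The N-box CACNAG was in 23 of the 42 (54.8%, against 43.1% of all). Motifs were searched on both strands, matches of different motifs could overlap, and the absence of a motif says only that these letters were not in the window.

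The 2 corepressors of the Groucho family among the 49 genes, proteins that Hes factors recruit, were higher at E15, and unnamed genes of the family are not covered. *Tle1* had 2746, 2501 and 2543 normalized counts at E15 against 525, 471 and 450.5 in the adult, a difference of 5.38-fold with a standard error of 0.11 on the log2 scale. *Tle2* was scarce, with 32, 62 and 48 raw counts against 1, 8 and 7, and its fitted difference was 5.09-fold. Its adult counts were lowest in replicate 1, the adult pool lowest in *Notch3*, *Notch4* and *Mfng*.

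Id proteins lack the DNA-binding region of bHLH factors and hold E proteins in inactive pairs. *Id1* had 1668, 2406 and 2181 normalized counts at E15 against 933, 674 and 649.6 in the adult, or 2.77-fold. *Id3* had 1418, 2333 and 2294 at E15 against 505, 340.2 and 324 in the adult, or 5.17-fold. Both were lowest at E15 in replicate 1 and highest in the adult in replicate 1, and without E15 replicate 1 they were 3.04- and 5.93-fold higher at E15.

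*Id2* was the member of this group that depended on scaling. Its raw counts were nearly the same at both ages, with 1625, 1552 and 1685 at E15 against 1558, 1395 and 1378 in the adult. After TMM scaling they became 1330.0, 1195 and 1321 at E15 against 2206, 1811 and 1893 in the adult, without overlap. The log2 fold change was -0.62 (standard error 0.12) with TMM and 0.19, not called, with scaling by total counts only. *Twistnb* turned round in the same way, from -0.70 to 0.11, with 832, 518 and 549 normalized counts at E15 against 1009.5, 1031 and 1042 in the adult. The direction of these genes between the ages therefore cannot be stated without a choice of scaling.

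**Figure D3:**
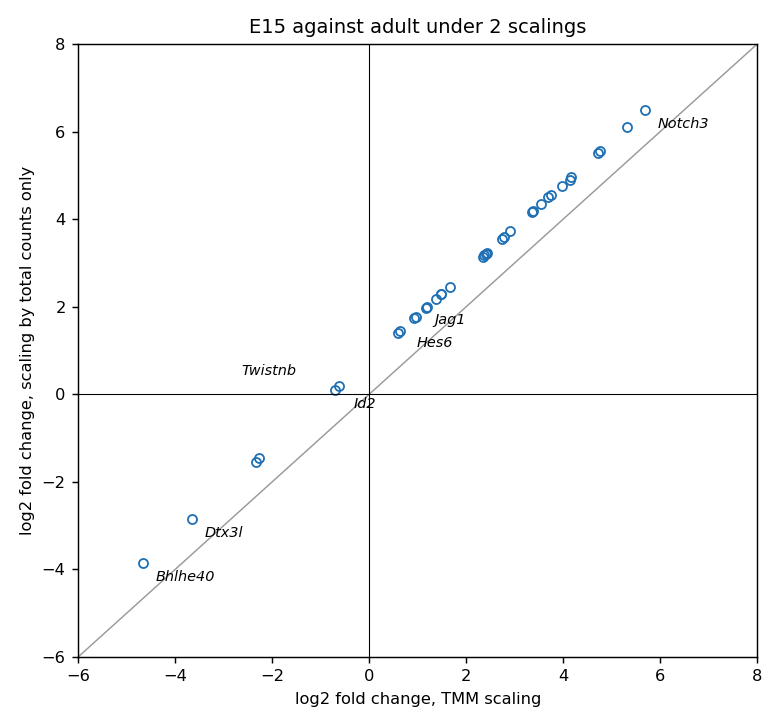
Log2 fold change with TMM scaling on the horizontal axis and with scaling by total counts only on the vertical axis, for the members with more than 3 counts at each age. All points lie above the line of equality, and *Id2* (-0.62 and 0.19) and *Twistnb* (-0.70 and 0.11) are the points that cross from the adult to the E15 side.

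The E proteins, the common partners of tissue-specific bHLH factors, were higher at E15. *Tcf3*, which encodes E12 and E47, had 1734, 2212 and 2433 normalized counts at E15 against 234, 217 and 168 in the adult, or 10.3-fold. *Tcf4* had 910.1, 701 and 815 at E15 against 51.0, 79.2 and 76.9 in the adult, or 11.7-fold. *Tcf12* had 3373, 2894 and 2822 at E15 against 1955, 1865 and 2029 in the adult, and its difference of 1.55-fold was the smallest in this group. The log2 fold changes were 3.37, 3.54 and 0.64, with standard errors of 0.18, 0.20 and 0.11.

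Proneural and neuronal bHLH genes formed the largest group, with 15 genes, of which 13 were called higher at E15 and 2, *Olig1* and *Bhlhe23*, higher in the adult, beside 34.7% and 29.3% of all genes tested. Their median log2 fold change was 6.56 in the fit and 5.07 with bounds and ratios in place of fitted values. Adult counts were 0 in all pools for 6 of them. *Neurog1*, a proneural factor, had 60, 52 and 62 raw counts at E15 and was at least 33.7-fold higher there. *Neurog2*, the proneural gene of dorsal forebrain, had 142, 135 and 243 against 0, 0 and 2, a ratio of 151 (95% interval 41.6 to 1250.2). For *Neurog2* this was 98.3 without adult replicate 2 and at least 67.4 without adult replicate 3, which held its adult counts. Every E15 pool lay far above every adult pool for both genes.

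Factors of differentiating neurons were uneven between the E15 pools. *Neurod6*, a marker of cortical projection neurons, had 423, 7 and 183 raw counts at E15 and 0 in each adult pool. It was at least 119-fold higher at E15. The bound was 54.2-fold when E15 replicate 1 was left out and 178-fold when E15 replicate 2 was. *Nhlh1*, a factor of newly formed neurons, had 617, 160 and 358 at E15 and 0 in the adult, and *Nhlh2*, its relative, had 38, 21 and 45 and 0. The call of *Neurod6* was lost in limma-voom. The bound for *Nhlh1* was 219.7-fold, or 148-fold without E15 replicate 1, and that for *Nhlh2* was 20.1-fold. In each of these genes E15 replicate 2 held the fewest counts.

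The same pool was lowest for the other *Neurod* genes. *Neurod1*, which drives neuronal differentiation, had 319, 69 and 177 raw counts at E15 against 8, 0 and 0 in the adult. The fitted difference was 40.0-fold, or 25.3-fold without E15 replicate 1 and 25.9-fold without adult replicate 2. All 8 adult counts came from replicate 1, and without it the bound was 74.3-fold. *Neurod2* had 80, 20 and 105 against a single adult count in replicate 3, with a ratio of 119 (95% interval 21.1 to 4726). The ratio was 77.5 without adult replicate 2, and without replicate 3 it was at least 26.6-fold higher at E15. *Neurod4* had 100, 41 and 53 at E15 against 4, 3 and 0 in the adult, or 15.7-fold, and without adult replicate 1 the ratio was 25.5 (95% interval 8.61 to 125).

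*Bhlhe22*, a factor of cortical and spinal neurons, had the pattern of *Neurod6* at E15, with 309, 21 and 148 raw counts, but also 18, 6 and 3 in the adult. Its ages overlapped, with 16.2 normalized counts in E15 replicate 2 and 25.5 in adult replicate 1. The fitted 10.3-fold difference was 5.30-fold without E15 replicate 1 and 20.7-fold without adult replicate 1, and the call was lost without adult replicate 3 (7.66-fold) and in limma-voom. *Bhlhe23* was near the limit of detection, with 0, 2 and 1 raw counts at E15 against 4, 4 and 8 in the adult. The adult was higher by a ratio of 9.18 (95% interval 2.63 to 49.2). That ratio was 18.1 without E15 replicate 2 (95% interval 2.82 to 760.0), and the call was lost without E15 replicate 3 (9.15) and without adult replicate 3 (6.86), with a replicate block and with scaling by total counts only.

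**Figure D4:**
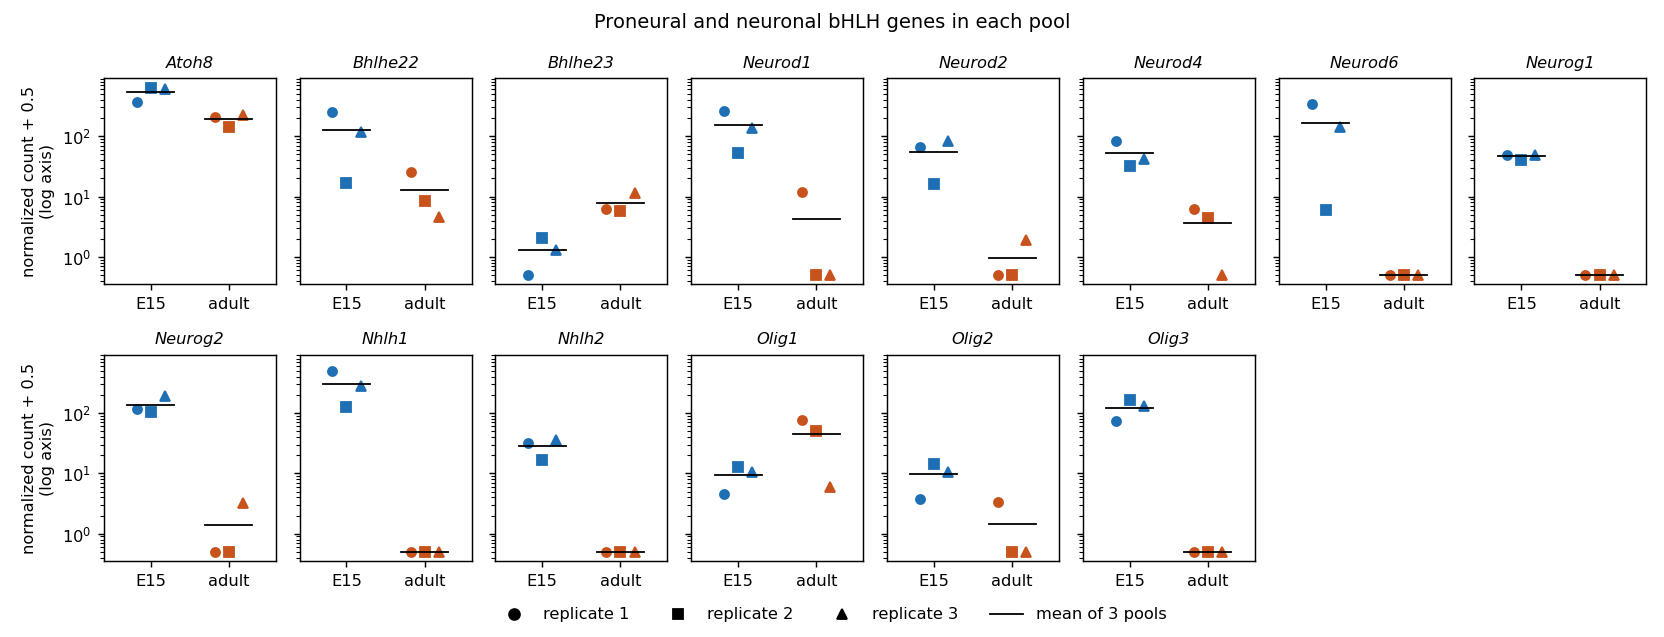
Normalized counts plus 0.5, on a log axis, of proneural and neuronal bHLH genes in each pool, with E15 in blue and adult in orange. E15 replicate 2 was the lowest E15 pool for *Neurod6*, *Bhlhe22*, *Neurod1* and *Nhlh1*, and several genes were at 0 in each adult pool.

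Among E15 pools the 15 genes had median log2 deviations of 0.27, -0.63 and 0.12. Of 15 markers of developing neurons 11 could be named, 9 of them higher at E15, 1 higher in the adult and 1 not called, with *Reln* the most abundant. Their median deviations were 0.72, -1.46 and 0.08, and their summed normalized counts were 7084, 4634 and 6444 at E15 against 12933, 14308 and 12944 in the adult, where *Reln* made up most of the sum. Of the 11, 9 were lowest in E15 replicate 2, while *Reln* and *Lhx5* were lowest in replicate 1. Of 12 markers of neural progenitors 9 could be named, all 9 higher at E15, led by *Vim* and with *Hmga2* at 0 in the adult. Of all genes tested, 34.7% were called higher at E15 and 29.3% in the adult. Nothing is read from how many markers differed, since both lists were named from genes the authors had called between the ages. The progenitor list deviated by 0.63, -0.51 and -0.06, though only 5 of the 9 were lowest in replicate 2 and *Vim* was lowest in replicate 1. Its summed normalized counts were 35567, 34656 and 34725 at E15 against 3229.6, 5229 and 3596 in the adult. By these medians, the neuronal bHLH genes, the neuron markers and the progenitor markers were all lowest in E15 replicate 2 and highest in replicate 1. Markers of proliferation had the same order, at 0.15, -0.15 and 0.05, with 5 of 6 lowest in E15 replicate 2. The part of tissue of the cortical wall in the bHLH counts was not tested.

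The spread between E15 pools was wide in this group. For the 8 of its genes with a mean of at least 100 normalized counts at E15, the median coefficient of variation was 50.4%. It was 19.9% for the 31 members and 13.5% for the 10984 genes above that mean. The highest of the 8 was 104%, for *Neurod6*.

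Not every gene of the group followed the neuron markers. Of the 15 genes, 10 were lowest in E15 replicate 2 and 5 in replicate 1, and 7 were highest in replicate 1, 5 in replicate 2 and 3 in replicate 3. The 5 lowest in replicate 1 and highest in replicate 2 were *Atoh8*, *Bhlhe23* and the *Olig* genes. *Olig3*, a factor of dorsal progenitors at the edges of the neural tube, had 89, 212 and 169 raw counts at E15 and 0 in the adult, and was at least 91.0-fold higher at E15. *Atoh8* had 363, 634 and 594 normalized counts at E15 against 209.5, 140.2 and 222 in the adult, or 2.78-fold, with every E15 pool above every adult pool. This order was the reverse of *Neurod1* and *Neurod6*.

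*Olig1* and *Olig2*, the *Olig* genes of oligodendrocytes, were few in counts and lay on opposite sides, and *Olig1* varied widely between the adult pools. *Olig1* had 5, 16 and 13 raw counts at E15 against 54, 38 and 4 in the adult, so that its ages overlapped. The fitted difference, 4.86-fold higher in the adult, was 3.13-fold without adult replicate 1. Its call was lost without E15 replicate 1 (3.86-fold), without E15 replicate 3 (5.24-fold) and without adult replicate 1 or 2 (3.13- and 4.66-fold), and also in limma-voom, with a replicate block and with scaling by total counts only. *Olig2* had 4, 18 and 13 at E15, with both adult counts in replicate 1, and a ratio of 10.2 (95% interval 2.61 to 87.2) in favour of E15. Without adult replicate 1 it was at least 4.61-fold higher at E15, and its call was lost without E15 replicate 2 or 3 (ratios 7.50 and 9.62) and without adult replicate 2 or 3 (6.61 and 6.81), and with a replicate block.

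The sums and medians of oligodendrocyte markers fell in the same order of adult pools as *Olig1*, as did 5 of the 7 markers. *Cldn11*, however, was highest in replicate 2 and *Cnp* lowest there. Of 8 such markers 7 could be named, with summed normalized counts of 7833, 3625 and 2053 in the adult against 1795, 1924 and 1841 at E15. Of these 7, 4 were higher in the adult and 2 at E15, beside 29.3% and 34.7% of all genes tested, and *Sox10* was not called. The median deviations in the adult were 2.12, -0.76 and -2.04, beside 1.46, 0.27 and -3.40 for *Olig1*. *Sox10*, a defining factor of the lineage, had 29, 6 and 0 raw counts in the adult pools. The part of myelinated tissue in the *Olig1* difference was not tested.

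**Figure D5:**
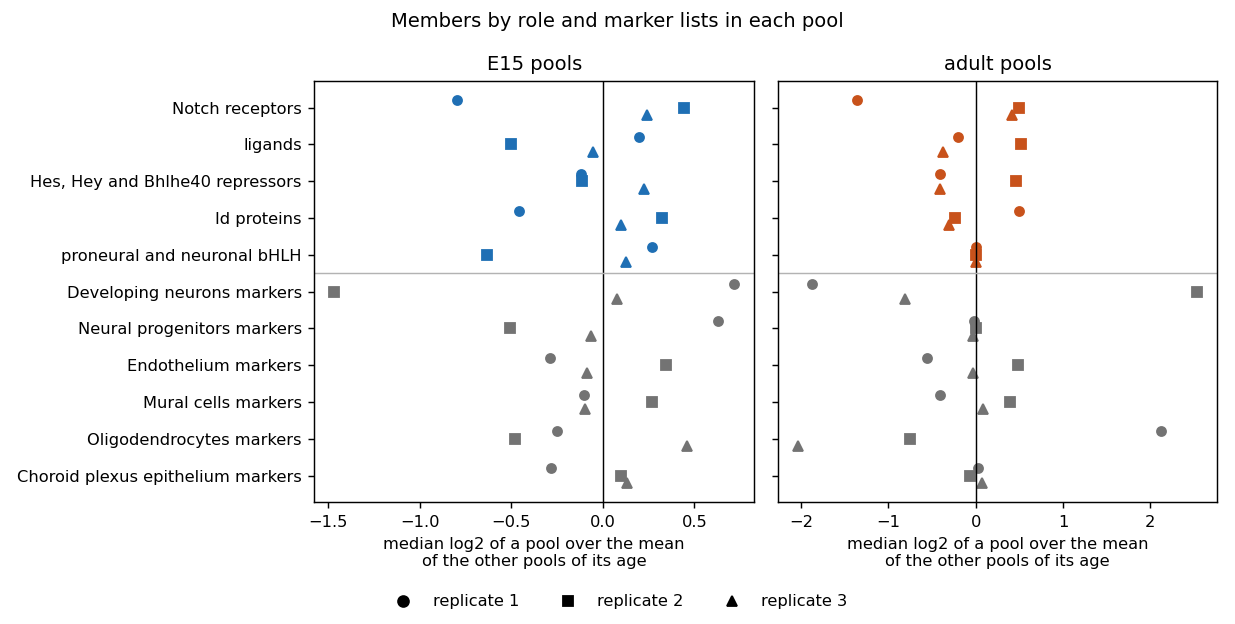
Median log2 ratio of each pool to the mean of the other pools of its age, for members by role (coloured) and for marker lists (grey), with E15 pools on the left and adult pools on the right. E15 replicate 2 is lowest for the neuronal bHLH genes (-0.63) and the neuron markers (-1.46), and replicate 1 of each age is lowest for the receptors (-0.79 and -1.36).

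Adult replicate 2 had the highest adult counts of *Dll1*, *Hes5*, *Hey1*, *Heyl*, *Jag1* and *Dll4*. It was also the adult pool with the most neuron markers, which deviated by -1.88, 2.54 and -0.81, and the highest for endothelial, mural, erythroid and mesenchyme markers, at 0.49, 0.40, 0.52 and 0.43. The *Neurog* and *Nhlh* genes, *Neurod1*, *Neurod2* and *Neurod6* had no counts there, while *Neurod4* had 3 raw counts, *Bhlhe22* 6, *Olig1* 38 and *Atoh8* 108. Most adult counts of *Neurod1* and *Bhlhe22* lay in replicate 1, where the neuron markers were lowest. Which cells held these counts was not tested.

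Mesodermal bHLH genes made up the remaining 5. *Twist1*, a factor of mesenchyme and neural crest, had 503, 539 and 363 normalized counts at E15 against 14.2, 23.4 and 13.7 in the adult, or 27.0-fold (log2 fold change 4.76, standard error 0.28). *Twist2* had 29, 35 and 45 raw counts at E15 and 0 in the adult, and was at least 21.1-fold higher. *Tcf21*, a factor of stromal and visceral mesenchyme, differed by 1.91-fold, with its call lost with a replicate block, without E15 replicate 2 or 3 (1.91- and 1.72-fold) and without adult replicate 2 or 3 (1.70- and 1.84-fold). *Tcf15*, known from somites and endothelium, had 5, 10 and 9 raw counts against a single adult count in replicate 3, a ratio of 13.9 (95% interval 2.27 to 573). Without that pool it was at least 3.11-fold higher at E15, and its call was lost without E15 replicate 2 or 3 (ratios 12.4 and 13.1) and without adult replicate 1 or 2 (9.47 and 9.07), and with a replicate block.

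*Mesp1*, best known from the earliest cardiac mesoderm, went the other way. It had 0, 1 and 1 raw counts at E15 against 79, 101 and 76 in the adult, where its pools varied little. The ratio was 220.4 (95% interval 60.4 to 1829.6) in favour of the adult, and 149 without E15 replicate 1. Of 10 mesenchyme markers 9 could be named. Of these, 7 were higher at E15 and 2 in the adult, beside 34.7% and 29.3% of all genes tested. The sums were 43286, 57668 and 50190.1 at E15 against 18590.4, 18700.0 and 17532 in the adult. *Col3a1* was the most abundant at E15, and *Pdgfra*, one of the genes higher in the adult, made up 56.6% of the adult sum. The part of stroma in the differences of the *Twist* genes and *Mesp1* was not tested.

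Other genes of the Notch pathway were taken from a list of 42, of which 15 could be named. All 15 names come from the same table of genes called between the ages, so their counts too are a description. In the fit, 6 were called higher at E15 and 8 higher in the adult, where 34.7% and 29.3% of all genes tested were called, and nothing is read from these counts. The median log2 fold change was -0.72 with TMM, against 0.14 over all genes, and 0.09 with scaling by total counts only, against 0.94, so its sign depends on scaling. *Dner* was not called, but was called higher in the adult without E15 replicate 1, without a filter, with filterByExpr, with RLE factors, in DESeq2, in limma-voom and in the exact test. The subunits of gamma-secretase, the protease that releases the Notch intracellular domain, were higher in the adult with TMM scaling, which *Psen2* and *Aph1a* were not with scaling by total counts only. *Psenen* had 1138, 1018 and 1035 normalized counts at E15 against 3132, 2939 and 3175 in the adult, or 2.90-fold. *Aph1a* had 1500.2, 1439 and 1485 against 2316, 2313 and 2048, and *Psen2* had 341, 463 and 486 against 770.2, 722 and 630.4. The latter genes had log2 fold changes of -0.59 and -0.72 that turned to 0.21 and 0.09 with scaling by total counts only, while *Psenen* kept its direction.

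*Nrarp*, which Notch induces and which helps to remove the Notch intracellular domain, had 619.6, 407 and 468 normalized counts at E15 against 12.7, 35.1 and 22.0 in the adult, or 21.1-fold (log2 fold change 4.40, standard error 0.32). *Dlk1*, an imprinted Delta-like protein, had 564, 684 and 665 raw counts at E15 against 0, 50 and 5 in the adult. Its 20.4-fold difference was 136-fold without adult replicate 2 and 13.6-fold without adult replicate 1. Of the nuclear cofactors, *Kat2a* was 2.08-fold, *Hdac1* 1.62-fold and *Crebbp* 1.57-fold higher at E15.

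The acetyltransferase *Kat2b*, a paralogue of *Kat2a*, had 193, 190.2 and 179 normalized counts at E15 against 1002, 995 and 1026 in the adult. This was 5.37-fold in favour of the adult, so these paralogues lay on opposite sides. *Cntn1*, an adhesion protein that has been described as a Notch ligand, had 14855, 15301 and 15686 at E15 against 71908, 72481 and 76219 in the adult, or 4.81-fold. *Chuk*, an IkappaB kinase subunit, was 3.80-fold and *Eps15*, an endocytic adaptor, 3.09-fold higher in the adult. The pools of the ages did not overlap for any of these 4 genes, nor for 70.1% of all genes tested.

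Further bHLH genes came from a list of 56, of which 32 could be named under the same selection. The fit called 18 of them higher at E15 and 13 higher in the adult, beside 34.7% and 29.3% of all genes tested, and *Ferd3l* was not called. Their median log2 fold change was 1.26, or 2.06 with scaling by total counts only and 0.64 over the 29 genes that filterByExpr kept. The genes given for the E15 side are the 5 with the largest differences among those with a mean above 100 normalized counts there. *Mycn* had 349, 327 and 516 raw counts at E15 against 2, 0 and 3 in the adult, with a fitted log2 fold change of 7.03 (standard error 0.49). *Mycl1* had 332, 356 and 353 against 0, 4 and 5, or 65.3-fold. The pools of the ages lay far apart for both genes. *Mxd3*, a partner of Max in dividing cells, had 91, 148 and 180 and 0 in the adult, and was at least 81.1-fold higher. Without single adult pools, *Mycn* had a fitted fold of 85.1 without replicate 2, and ratios of 157 (95% interval 53.5 to 762) without replicate 1 and 232 (95% interval 64.0 to 1917) without replicate 3. Of 8 proliferation markers 6 could be named, all 6 higher at E15, beside 34.7% of all genes tested. Their sums were 13906, 11381 and 13176 at E15 against 2169, 2214 and 2359.6 in the adult, led by *Pcna*. The part of dividing cells in the *Mycn* and *Mxd3* differences was not tested.

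*Hif3a*, a hypoxia-inducible factor subunit, had 457, 727 and 678 raw counts at E15 against 1, 0 and 1 in the adult. Its ratio was 541 (95% interval 149 to 4468), and 352 without adult replicate 2 (95% interval 97.3 to 2907). *Tal1*, a factor of blood and endothelial precursors, had 551, 519.8 and 420.3 normalized counts at E15 against 24.1, 19.5 and 19.2 in the adult, or 23.7-fold. Of 8 erythroid markers 5 could be named, all 5 higher at E15, beside 34.7% of all genes tested. Their sums were 44538, 71434 and 67309.6 at E15 against 3688, 5449.9 and 4065 in the adult. The most abundant of them was *Hba-a2*, and none was at 0. Of 6 macrophage markers 4 could be named. Of these, 2 were higher at E15 and 1 in the adult, beside 34.7% and 29.3% of all genes tested. The macrophage sums were 1786, 1997 and 1715 at E15 against 464, 786 and 749 in the adult, led by *Csf1r*. The part of blood in the *Tal1* difference was not tested.

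On the adult side the genes given are the 5 with the largest differences among those with a mean above 100 normalized counts in the adult. *Npas2* and *Clock* pair with *Arntl* in the circadian clock. *Npas2* had 62.2, 52.4 and 61.2 normalized counts at E15 against 1138, 1001 and 964 in the adult, or 17.6-fold. *Clock* had 259, 209 and 224 against 731, 731 and 1038, and *Arntl* had 303, 257 and 269.8 against 950.0, 639 and 749.9. These were 3.61- and 2.82-fold higher in the adult, on the same side as *Bhlhe40*. *Scx*, a factor of tendon and ligament cells, had 27.0, 24.6 and 25.9 at E15 against 392, 342 and 361 in the adult, or 14.1-fold. *Tfeb*, a regulator of lysosomal genes, had 46.7, 92.4 and 113 against 211, 244 and 170.3. *Tfeb* was 2.48-fold higher in the adult, with E15 replicate 1 the lowest pool, and it was not called with scaling by total counts only.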

How the data were processed

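The deposited raw counts, 1 whole number for each gene and library, were used. The authors had mapped trimmed reads with Bowtie 0.12.7, kept reads with a single place and counted them with HTSeq 0.4.7p4. A deposited table by the authors, from which gene names were taken, also holds log abundances, log fold changes, p-values and adjusted p-values, which were not used. It holds 10653 of the 29479 identifiers, and the other identifiers were not analysed here by name.

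Ages were compared with edgeR 4.0.16 (glmQLFit and glmQLFTest, age as the only term) in R 4.3.3, with TMM factors, on the 16643 genes with more than 10 counts in all. Benjamini-Hochberg adjustment was over these genes and calls were made below 0.05. The procedure was also tested on simulated data.

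The genes and all lists, and the rule for which are named, were chosen with earlier results of these data known. Values in each pool were due for receptors, ligands, *Hes*, *Hey*, *Id* and neuronal bHLH genes, and for the members and list genes with the largest differences or levels. *Numb*, *Sox10*, *Lhx5*, *Cldn11* and *Cnp* were named after their values were seen. Deviations of a pool used a pseudocount of 0.5. Alternatives were RLE, upper quartile and total count scaling, no filter, filterByExpr, DESeq2 1.42.0, limma-voom (limma 3.58.1), the exact test of edgeR, a replicate block, each library left out, a pseudocount of 5 and promoters without the bases after the start. Promoters were RefSeq sequences of build GRCr8, matched by symbol.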

Additional observations from a re-analysis of the deposited data

How the results depend on the processing

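Under the 15 alternatives, 37 to 41 of the 49 genes were called higher at E15, against 40. Of all genes tested, 5009 to 9799 were called higher at E15, against 5773. Nothing is read from these counts, since the 49 had been selected on the same contrast. The filterByExpr setting kept 45 of the 49 and called 37 of them higher at E15. The median log2 fold change of the members in each fit lay between 2.66 and 3.72, against 2.91. Scaling by total counts only moved most values. It called 9799 genes higher at E15 and 2292 higher in the adult, against 5773 and 4879, which is 81.0% of calls at E15 in place of 54.2%. With it 3 of the 49 genes were called higher in the adult, against 8, and 5 of the other Notch pathway genes, against 8, and the median of the 49 was 3.72. It turned *Id2* to 0.19, *Twistnb* to 0.11, *Psen2* to 0.0899 and *Aph1a* to 0.21, since it shifts the median of all genes from 0.14 to 0.94. Median pool deviations moved for the E proteins (-0.0545) and mesodermal genes (-0.14) in adult replicate 1, and for *Twistnb* in adult replicates 1 (-0.10) and 2 (0.0528). With single libraries left out, 5 to 8 of the 49 were called higher in the adult, beside 4327 to 5449 of all genes tested. Replicate numbers did not pair the pools, with correlations of same-numbered pools' deviations of -0.007, -0.011 and -0.038. With the replicate block, 37 and 6 of the 49 and 5320 and 4608 of all genes were called. It lost the calls of *Bhlhe23*, *Olig1*, *Olig2*, *Tcf15* and *Tcf21*. Calls of *Rbpjl*, *Bhlhe22*, *Neurod6*, *Id2*, *Twistnb* and *Hes7* changed with other alternatives. Genes with few counts at an age carry a large counting error, as the intervals above show, and the effect of depth was not tested.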
